A study of Mus musculus with 18 samples.

Results

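Bile acid synthesis and transport was followed through 10 genes, taken as the rows of the count tables whose symbol is Cyp7a1, Cyp8b1, Cyp27a1, Cyp7b1, Baat, Slc10a1, Abcb11, Abcb4, Abcc3 or Nr0b2. All 10 were listed in every library, among 22609 gene symbols. Wild-type mice of the inbred strain C57BL/6J were fed a ketogenic diet, in which fat made up 90%, protein 9.7% and carbohydrate 0.3%, or standard chow, and RNA of the heart, kidney and liver was sequenced. The diets began at 4 weeks of age and lasted 21 days. Each organ and diet had 3 libraries that the labels call biological replicates, 18 in all. The comparison asks how the diet changed these genes, above all in liver.

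Bile acids are made from cholesterol in hepatocytes, by a classic route that CYP7A1 opens and an alternative route in which CYP27A1 and CYP7B1 act. They are joined to taurine or glycine, pumped into bile, reclaimed in the gut and taken up again from portal blood. Bile acids returning to the liver activate the nuclear receptor FXR, which induces Nr0b2 and export pumps and thereby restrains Cyp7a1. Several of these genes, Cyp7a1 among them, follow a daily rhythm in mouse liver, and Cyp7b1 is known as a gene with higher expression in males.

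Totals ran from 18151967 to 23835383 counts in liver, 16173996 to 19923905 in kidney and 16135276 to 22767878 in heart. Ketogenic replicates 1 and 2 of liver and of heart differed by little more than counting noise: the median chi-square of their genes was 0.678 in liver and 0.667 in heart, where noise alone gives 0.455 and the other 16 pairs gave 1.25 to 4.43. Each such pair was summed and counted as 1 sample, so ketogenic liver and heart had n = 2 and the other groups n = 3. The organ labels matched their markers. The 6 hepatocyte markers summed to 72343 CPM or more in liver (CPM, counts scaled to library size) and at most 230.2 elsewhere, the 6 heart muscle markers to at least 53267 in heart and at most 13.9 elsewhere, and the 6 proximal tubule markers to at least 13627 in kidney and at most 426 elsewhere. Chow heart replicate 3 stood apart, with 4 atrial muscle markers summing to as much as 12180 CPM, against a lowest chow heart of 65.7.

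To show the DNA that lies just before genes that moved in opposite directions in liver, the 250 bases upstream of the start of 2 genes that rose (Cyp8b1, Abcb4) and 2 that fell (Abcb11, Nr0b2) are printed 5′ to 3′ on the gene's strand, from RefSeq on GRCm38.p6. Capitals mark the motif matches described after them.
Cyp8b1 (chr9:121916306-121916555, minus strand): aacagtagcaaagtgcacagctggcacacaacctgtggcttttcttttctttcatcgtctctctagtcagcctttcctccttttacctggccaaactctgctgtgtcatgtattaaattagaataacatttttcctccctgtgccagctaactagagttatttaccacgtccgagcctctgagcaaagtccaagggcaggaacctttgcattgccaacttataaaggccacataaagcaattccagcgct
Abcb4 (chr5:8893471-8893720, plus strand): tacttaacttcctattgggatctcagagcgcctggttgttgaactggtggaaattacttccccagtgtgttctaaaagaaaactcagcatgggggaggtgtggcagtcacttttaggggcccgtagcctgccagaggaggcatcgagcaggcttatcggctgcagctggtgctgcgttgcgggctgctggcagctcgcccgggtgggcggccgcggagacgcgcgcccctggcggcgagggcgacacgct
Abcb11 (chr2:69342617-69342866, minus strand): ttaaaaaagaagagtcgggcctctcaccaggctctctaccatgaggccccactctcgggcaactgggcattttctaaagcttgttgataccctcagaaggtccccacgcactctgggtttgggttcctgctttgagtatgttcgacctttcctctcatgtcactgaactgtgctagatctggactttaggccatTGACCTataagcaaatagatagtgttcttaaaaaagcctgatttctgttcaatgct
Nr0b2 (chr4:133553126-133553375, plus strand): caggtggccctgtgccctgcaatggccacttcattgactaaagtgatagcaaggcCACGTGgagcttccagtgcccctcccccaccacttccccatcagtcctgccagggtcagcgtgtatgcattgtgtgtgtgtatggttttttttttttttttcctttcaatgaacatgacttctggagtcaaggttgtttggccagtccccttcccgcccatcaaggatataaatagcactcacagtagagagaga
Of the 10 genes, 6 had RefSeq windows, 7 in all because Slc10a1 had 2. They were searched on both strands for the nuclear receptor half-site AGGTCA, its extended form CAAGGTCA, the inverted repeat that FXR is known to bind (GGTCA, any base, TGACC), the E-box CACGTG and the D-box TTATGTAA. The extended form contains the half-site. The window of Abcb11 held a half-site at -56 to -51 from the start, on the strand opposite to the one printed (where it reads TGACCT), a window of Slc10a1 held one at -87 to -82, and the window of Nr0b2 held an E-box at -195 to -190. No other exact match was present in the 7 windows, and near matches were not searched for. In the Abcb11 window the half-site is part of GGCCATTGACC, which differs from the inverted repeat by a letter. This near match did not come from the search, and how often windows hold such a near match was not counted. Of 32851 windows of 250 bases, 14% held the half-site, 1.33% the extended form, 0.0335% the inverted repeat, 6.02% the E-box and 0.819% the D-box. A match of letters is a description and not a binding site.

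In liver, 4 of the 10 genes rose on the ketogenic diet, 2 fell and 4 did not pass, by edgeR's quasi-likelihood test with adjusted p under 0.05 over all genes tested. Of the 13220 genes tested in liver, 36.8% passed, 19.2% higher and 17.6% lower. The median log2 fold change of the 10 was 0.41, beside 0.01 over all genes tested. The genes that rose were Cyp8b1 and Cyp7b1 of synthesis, Baat of conjugation and the phospholipid pump Abcb4. The genes that fell were the bile salt pump Abcb11 and the repressor Nr0b2. All 10 had ketogenic samples that did not overlap with chow samples, which held for 61.3% of all genes tested. In bulk tissue, fewer cells of a type and less RNA per cell cannot be told apart.

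**Figure D1:**
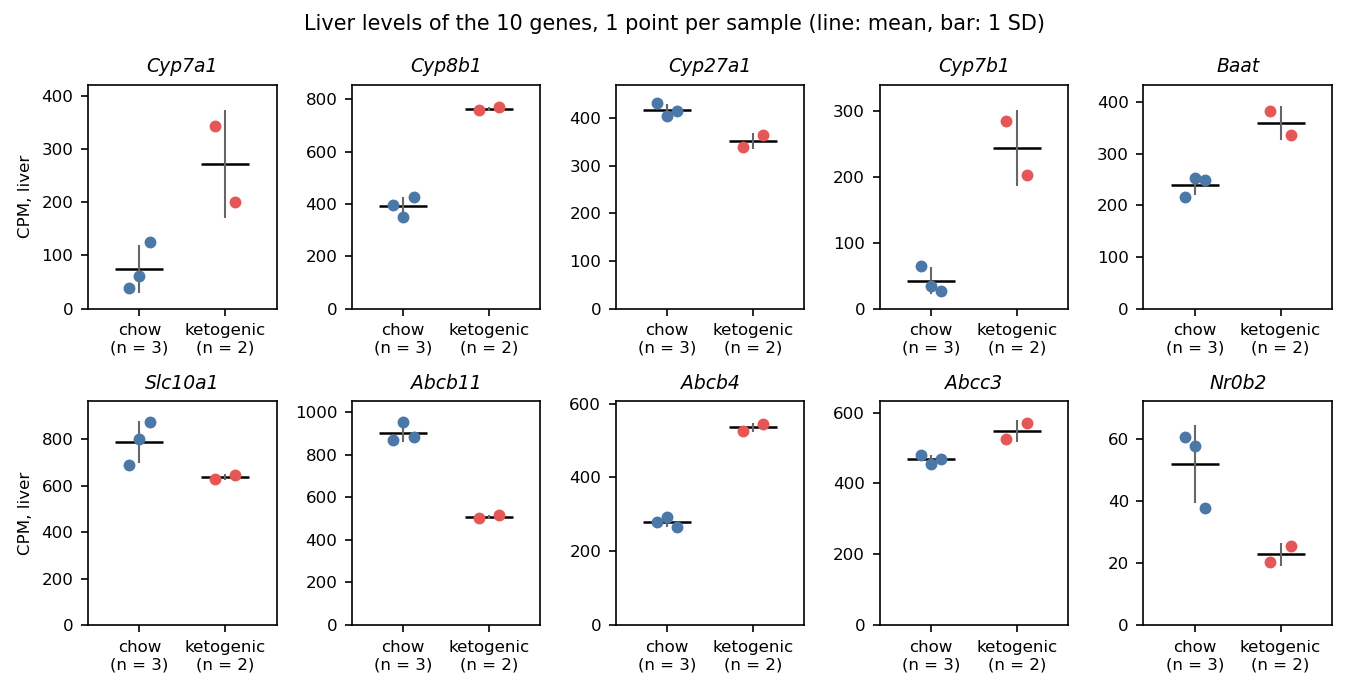
Liver level of each of the 10 genes in CPM (vertical axes, each from 0) in chow (n = 3) and ketogenic (n = 2) samples, where a point is a sample, the line the mean and the bar 1 SD. In every panel the ketogenic points lie wholly above or wholly below the chow points, and Cyp7a1 and Cyp7b1 have the widest spread relative to their level.

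Among the synthesis enzymes, Cyp7a1 (mm9 chr4:6192759-6202778, 6 exons), the rate-limiting enzyme of the classic route, stood at 343 CPM in ketogenic replicates 1 and 2 and 200.03 in replicate 3, and at 38.3, 61.2 and 125 CPM in chow replicates 1, 2 and 3. The lowest ketogenic sample lay above the highest chow sample, but each group spread widely. The mean was 272 ± 101 CPM (SD, n = 2) against 74.8 ± 44.9 (SD, n = 3), a log2 fold change of 1.86 (SE 0.66, 95% confidence interval -0.13 to 3.85), which did not pass by edgeR (adjusted p = 0.122). The test passed in 5 of 15 alternatives, among them DESeq2 (adjusted p = 0.029) and the fit without chow replicate 3 (log2 fold change 2.45, adjusted p = 0.0462).

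Cyp8b1 (mm9 chr9:121823474-121825423, 1 exon), the sterol 12-alpha-hydroxylase that directs the classic route to cholic acid, stood at 759 and 770.0 CPM in the ketogenic samples and at 396, 351 and 426 in chow. Both ketogenic samples were high and close together, far above every chow sample. It rose by a log2 fold change of 0.97 (SE 0.11), or 1.95-fold, with adjusted p = 7.71e-05 by edgeR, and passed in all 15 alternatives.

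Cyp7b1 (mm9 chr3:17971950-18143338, 6 exons), the oxysterol 7-alpha-hydroxylase of the alternative route, stood at 285 and 203 CPM on the ketogenic diet and at 65.4, 34.0 and 27.3 on chow. Its lowest ketogenic sample was more than any chow sample, with chow replicate 1 the highest of the chow livers. The log2 fold change was 2.53 (SE 0.48), or 5.78-fold, the largest of the 10 genes in liver (adjusted p = 0.0285, edgeR). It no longer passed without ketogenic replicate 3 (adjusted p = 0.0723), chow replicate 2 (0.0841) or chow replicate 3 (0.0552).

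Cyp27a1 (mm9 chr1:74760148-74784464, 9 exons), the mitochondrial sterol 27-hydroxylase that starts the alternative route, stood at 340 and 364 CPM in ketogenic livers and 431, 405 and 414 in chow. The ketogenic samples were the lower ones, by a small margin. Its log2 fold change was -0.24 (SE 0.10, 95% confidence interval -0.46 to -0.03) and did not pass (adjusted p = 0.0755, edgeR). It passed in 3 alternatives, with the lowest adjusted p of 0.014 when the near-identical pair was kept as separate libraries.

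Baat (mm9 chr4:49502290-49519430, 4 exons), which joins bile acids to an amino acid, stood at 383 and 336 CPM on the ketogenic diet and at 216, 253 and 248 on chow. Both ketogenic samples were above all chow samples. It rose from a mean of 239 to 360 CPM, a log2 fold change of 0.59 (SE 0.11), with adjusted p = 0.00179 by edgeR.

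Of the transporters, Slc10a1 (mm9 chr12:82054172-82069066, 5 exons), the sodium-dependent carrier that takes bile acids up from blood, stood at 628 and 647 CPM in ketogenic livers and 692, 801 and 875 in chow. All ketogenic values were lower, with the lowest chow sample near them. The log2 fold change was -0.31 (SE 0.12, 95% confidence interval -0.57 to -0.04) and did not pass by edgeR (adjusted p = 0.0666). It passed in 4 alternatives, including the fit without chow replicate 1, where it was -0.39 (adjusted p = 0.0138).

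Abcb11 (mm9 chr2:69076339-69180673, 28 exons), the bile salt export pump of the canalicular membrane, stood at 502 and 516 CPM on the ketogenic diet and at 869, 952 and 884 on chow. Both groups were tight and far apart. It fell by 0.83 on the log2 scale (SE 0.11), so that chow livers held 1.77-fold more, with adjusted p = 0.000178 by edgeR. In the model of all 6 groups, which shares 1 estimate of spread among organs, the change was -0.84 and did not pass (adjusted p = 0.0649).

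Abcb4 (mm9 chr5:8893721-8959226, 28 exons), the canalicular pump that moves phosphatidylcholine into bile, stood at 526 and 544 CPM in ketogenic livers and at 279, 292 and 266 in chow. Every ketogenic value was well above every chow value, the opposite of Abcb11 in the same membrane. It rose by 0.94 (log2, SE 0.10), or 1.92-fold, with the smallest adjusted p of the 10 genes (4.32e-05, edgeR).

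Abcc3 (mm9 chr11:94204609-94254290, 31 exons), a pump of the sinusoidal membrane that carries conjugates back to blood, stood at 527 and 571 CPM on the ketogenic diet and at 480, 456 and 470 on chow. The ketogenic samples were slightly higher. The log2 fold change of 0.23 (SE 0.10, 95% confidence interval 0.01 to 0.45) did not pass (adjusted p = 0.0963, edgeR), though it passed in 2 alternatives.

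Nr0b2 (mm9 chr4:133109305-133112451, 2 exons) encodes SHP, the repressor that FXR induces. It stood at 20.1 and 25.4 CPM in ketogenic livers and at 60.5, 57.7 and 37.5 in chow. All ketogenic samples were lower, and chow replicate 3 was the lowest chow liver and also the one with the most Cyp7a1. Its log2 fold change was -1.197 (SE 0.24), a fall, so that chow livers held 2.29-fold more (adjusted p = 0.0104, edgeR), and it passed in all 15 alternatives.

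**Figure D2:**
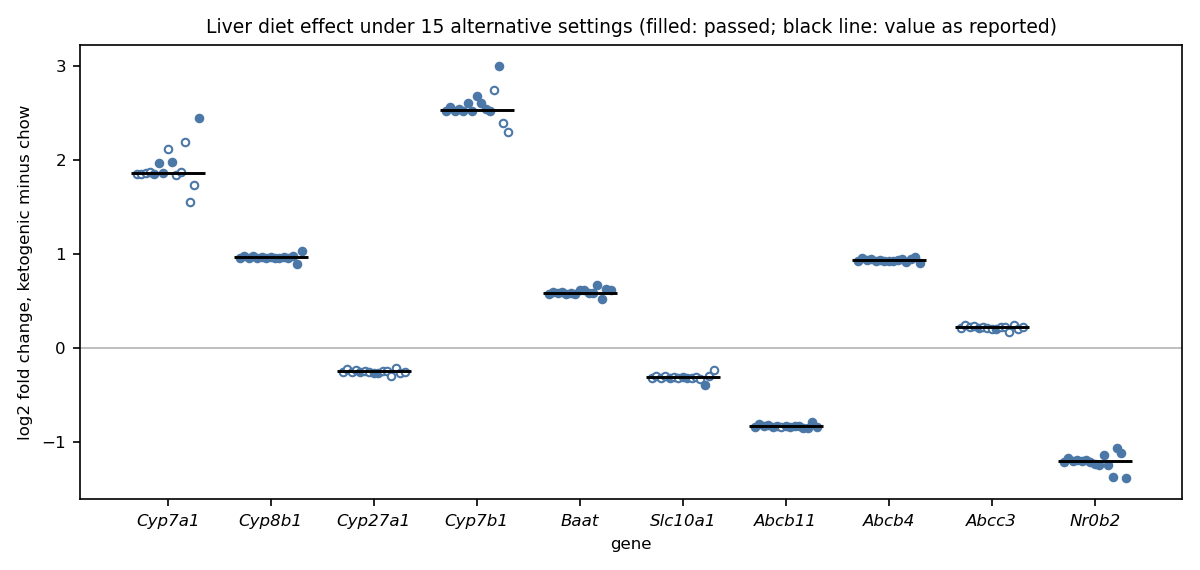
Liver log2 fold change of each gene, ketogenic minus chow, under 15 alternative settings (a point each, filled where it passed) with the reported value as a black line. No gene crosses 0, Cyp8b1, Baat, Abcb4 and Nr0b2 are filled throughout, and Cyp7a1, between 1.55 and 2.45, is filled in 5.

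Per kilobase of exon, which allows genes to be set side by side, the order of levels in chow liver ran from Slc10a1 (527 CPM per kilobase), Cyp27a1 (309), Cyp8b1 (281), Abcb11 (259), Baat (173), Abcc3 (131), Abcb4 (96.1) and Nr0b2 (65.2) to Cyp7b1 (27.4) and Cyp7a1 (25.2). The chow samples of Cyp27a1 and Cyp8b1 overlapped, as did those of Cyp8b1 and Abcb11 and those of Cyp7b1 and Cyp7a1, so these neighbours did not differ beyond their spread. In ketogenic liver Cyp8b1 led at 546 CPM per kilobase, Slc10a1 followed at 422, and Cyp27a1 (259) and Baat (258) overlapped. Then came Abcb4 (183), Cyp7b1 (157) and Abcc3 (153), of which Cyp7b1 overlapped with both others and also with Abcb11, which came next. Abcb4 stood above Abcb11 at 145 CPM per kilobase, where chow liver had the reverse order. Nr0b2 was last at 28.3 CPM per kilobase, below Cyp7a1 at 91.2.

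Other genes of the pathway were counted from a list of enzymes, transporters and regulators, 35 of which the tables hold. Of the 30 tested in liver, 6 rose, 7 fell and 17 did not pass. Among other synthesis enzymes, 3 of 11 rose and 3 fell. Acot8, a peroxisomal thioesterase, rose by 0.65 (log2, edgeR's adjusted p = 0.00189), Amacr, a racemase, by 0.45 (0.00496), and Hsd17b4, the peroxisomal bifunctional enzyme, by 0.39 (0.0106). Cyp2c70, which makes the muricholic acids of mice, was at 152 and 146 CPM in ketogenic livers and at 664, 566 and 581 in chow. All chow samples were several times higher, and Cyp2c70 fell by 2.02 (log2, adjusted p = 1.67e-06, edgeR). As a member of a family of similar genes whose reads the counting may have divided, Cyp2c70 is uncertain. Cyp39a1, an oxysterol hydroxylase, fell by 1.49 (adjusted p = 0.0256) and Acox2, a peroxisomal oxidase of the side chain, by 0.48 (0.00589). The call of Cyp39a1 was lost with no filter on low counts (0.0648) and without chow replicate 2 (0.0791), and that of Amacr in the model of all 6 groups (0.0814).

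Among other transporters, 2 of 9 rose and 2 fell. Slco1b2, a sodium-independent uptake carrier, was at 2342 and 2074 CPM in ketogenic livers and at 828, 888 and 838 in chow. Both ketogenic samples were far above chow, and Slco1b2 rose by 1.37 (log2, adjusted p = 8.5e-06, edgeR). Abcg8, a subunit of the sterol pump, rose by 0.50 (log2, adjusted p = 0.0299; lost in 4 of 15 alternatives), and its partner Abcg5 had 0.13 (0.454). The uptake carrier Slco1a4 fell by 1.43 (log2, adjusted p = 0.0211) and the sinusoidal pump Abcc4 by 0.57 (0.0435), which passed in 8 of 15 alternatives. The call of Slco1a4 was lost with no filter (0.0575) and without ketogenic replicate 3 (0.0509), and as one of a family of similar genes Slco1a4 is uncertain.

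Among receptors and factors, 1 of 10 rose and 2 fell. Nr1i3, the receptor CAR, rose from 50.6, 67.7 and 77.3 CPM in chow to 127 and 152 on the ketogenic diet, a log2 fold change of 1.09 (adjusted p = 0.00197, edgeR). Fgfr4, the receptor for the gut hormone that restrains bile acid synthesis, fell by 0.61 (adjusted p = 0.00739). Nr1h4, which encodes FXR, had a log2 fold change of 0.24 and did not pass (adjusted p = 0.099), and Klb, the partner of Fgfr4, had -0.09 (0.545).

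**Figure D3:**
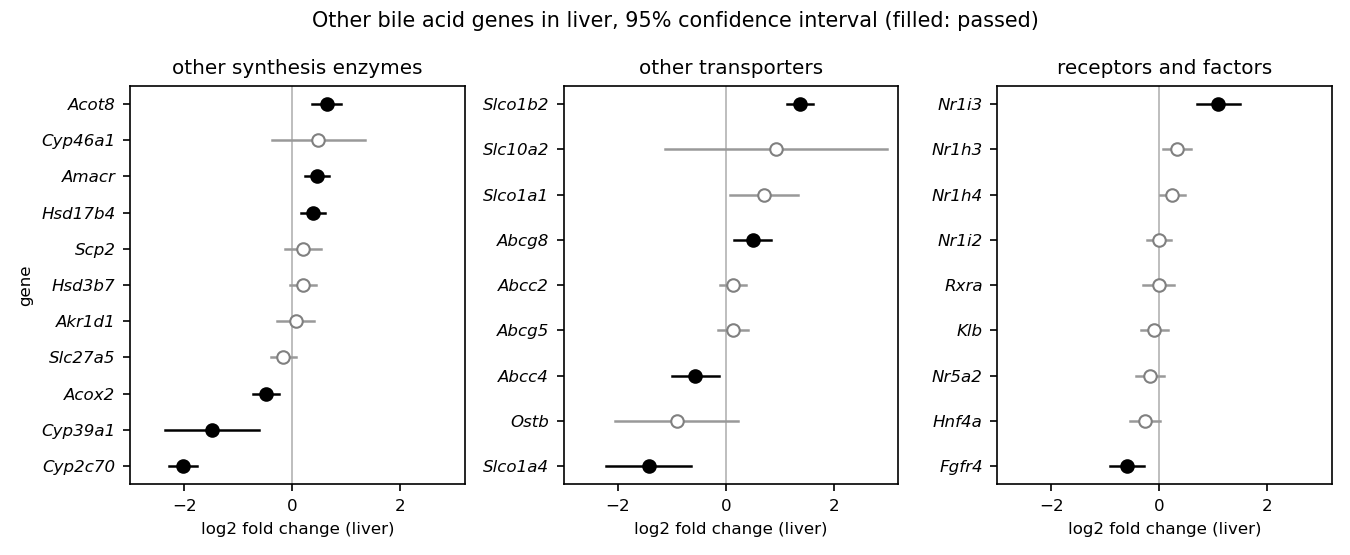
Liver log2 fold change (ketogenic minus chow, horizontal axes) of other pathway genes tested, with 95% confidence intervals, filled where the gene passed. Among those that passed, Slco1b2 at 1.37 is the highest and Cyp2c70 at -2.02 the lowest.

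Several features of the livers moved with the diet, and their part in the results was not tested. The labels give no hour of collection for any organ, so a difference of hour cannot be told apart from the diet. Of 16 clock genes, 6 rose and 4 fell: Arntl fell by 3.92 on the log2 scale, Npas2 by 4.39, while Per2 rose by 2.37 and Bhlhe41 by 5.36. The 16 summed to 973 to 1153 CPM in ketogenic livers and 547 to 688 in chow, and no gene of the list was at 0 counts in every liver sample. Dbp, a clock-controlled factor known to act on Cyp7a1, was at 140.0 and 173 CPM in ketogenic livers and at 4.12, 17.3 and 28.1 in chow replicates 1, 2 and 3. The 3 chow livers ranked alike for Dbp and for Cyp7a1, and the 2 ketogenic samples ranked in opposite ways. These ranks rest on 3 and 2 samples, and a link between the genes was not tested. Dbp itself did not pass (log2 fold change 3.24, adjusted p = 0.0667, edgeR).

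Of 6 hepatocyte markers 5 fell, and the sum was 72343 to 75611 CPM in ketogenic livers against 118125 to 127427 in chow, led by Alb at 53757 and 93874 CPM. Of 8 genes of hepatocytes around the central vein 4 rose and 1 fell (summed level 12814 to 12866 against 7345 to 7651 CPM). Cyp2e1, from a mean of 4222 CPM in chow to 8974, made up most of the higher sum. Of 8 genes of hepatocytes around the portal tract 5 fell and 3 did not pass (7864 to 10593 against 13534 to 14534 CPM). Of 6 bile duct markers 1 rose and 1 fell, with sums of 34.1 to 48.5 and 38.4 to 48.4 CPM. The 9 macrophage markers did not pass (311 to 478 against 360 to 418 CPM). All 8 markers of dividing cells fell, from sums of 96.2 to 141 CPM in chow to 7.24 to 10.3. Of 7 fibroblast and stellate cell markers 3 fell and 1 rose (429 to 462 against 551 to 564 CPM), with Col1a1 at -1.82 and Col3a1 at -1.65 on the log2 scale. Of 7 adipocyte markers 3 were tested and 1 rose, Cfd, from a mean of 0.0581 to 85.4 CPM, and 2 were at 0 counts in every liver sample.

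Male-biased and female-biased liver genes were counted beside Cyp7b1. Of 7 male-biased genes 1 rose (Mup20, by 3.17 on the log2 scale) and 6 did not pass, with sums of 4191 to 5285 CPM in ketogenic livers and 1824 to 2711 in chow. Mup20, from a mean of 233 CPM in chow to 2105, made up most of the higher sum. As one of a family of similar genes whose reads the counting may have divided, Mup20 is uncertain. Of 6 female-biased genes tested 3 fell and 3 did not pass, with sums of 16.5 to 45.7 and 120.3 to 342 CPM. Of 5 sex chromosome genes 4 were tested in liver: 3 rose and 1 did not pass. The list summed to 190 to 206 CPM in ketogenic livers and 138 to 155 in chow. The Y-linked gene Ddx3y rose from a mean of 71.9 to 103 CPM (log2 fold change 0.52, adjusted p = 0.0026, edgeR). It was at 66.8 to 109 CPM over all liver samples, and Xist at no more than 0.108.

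In kidney, 6 of the 10 genes were tested; 2 rose, 2 fell and 2 did not pass, where 9.05% of the 14526 genes tested passed, 3.59% higher and 5.45% lower. Cyp7a1, Cyp8b1, Abcb11 and Abcb4 had too few counts to be tested, with means of at most 0.665 CPM. The groups did not overlap for 4 of the 6, beside 31.4% of all genes tested. Cyp7b1 stood at 95.4, 157 and 146 CPM in ketogenic kidneys and at 20.9, 11.9 and 15.3 in chow. All ketogenic samples were several times above chow, and Cyp7b1 rose by 3.05 (log2, SE 0.28), or 8.30-fold (adjusted p = 0.00298, edgeR). Cyp27a1 stood at 44.1, 48.2 and 53.9 CPM on the ketogenic diet and at 20.7, 24.0 and 20.5 on chow. It too was higher in every ketogenic sample and rose by 1.16 (SE 0.10), or 2.24-fold (adjusted p = 0.000916, edgeR). Both passed in all 14 alternatives.

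Baat and Abcc3 fell in kidney, at lower levels. Baat was at 1.68, 1.11 and 1.65 CPM in ketogenic kidneys and 2.77, 2.88 and 3.25 in chow, from 17 to 60 counts a library. The groups did not overlap, and the change was -0.99 (log2, adjusted p = 0.0428, edgeR). Abcc3 was at 7.69, 4.97 and 6.82 CPM against 9.49, 15.8 and 14.6, again without overlap, and fell by 1.03 (adjusted p = 0.0276).  The fall of Baat was lost in 6 of 14 alternatives and that of Abcc3 in 5, and neither passed without ketogenic replicate 2 or 3, or without chow replicate 2 or 3, where 0 of the 10 genes fell by edgeR.

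Slc10a1 ran from 0.0601 to 1.17 CPM in ketogenic and 0.498 to 1.52 in chow kidneys, and Nr0b2 from 1.31 to 1.92 and 1.77 to 2.54. Both overlapped between the diets and did not pass, with log2 fold changes of -0.74 (adjusted p = 0.561) and -0.38 (0.415). Of the other 27 pathway genes tested in kidney, 1 rose, 2 fell and 24 did not pass. Nr1h4 rose by 0.63 (adjusted p = 0.00487, edgeR), Acox2 had -0.41 (0.0285) and Cyp39a1 -0.45 (0.0457). The call of Acox2 was lost in 5 of 14 alternatives and that of Cyp39a1 in 7. Both were lost without ketogenic replicate 2 and without any 1 of the 3 chow libraries, and that of Cyp39a1 also without ketogenic replicate 3. The renal bile acid carrier Slc10a2 was at 29.6 CPM in ketogenic and 29.8 in chow kidneys (log2 fold change -0.01, adjusted p = 0.951).

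Male-biased liver genes moved in kidney too: 3 of 5 tested rose, and the sum of the list was 283 to 907 CPM in ketogenic and 81.5 to 99.8 in chow kidneys. Slco1a1, from a mean of 32.1 CPM in chow to 379, added the most to the higher sum but did not pass (adjusted p = 0.0755, edgeR). Female-biased liver genes were also higher: 1 of 2 tested rose, Cyp2a4, from a mean of 10.8 to 344 CPM (adjusted p = 0.000881, edgeR), and the sum of the list was 308 to 402 CPM against 8.66 to 16.5. In liver Cyp2a4 fell by 6.65 on the log2 scale, and it belongs to a family of similar genes, so it is uncertain. Of 6 genes that androgen is known to raise in mouse kidney, 2 rose and 4 did not pass. Of 16 clock genes 10 rose and 3 fell, with sums of 1290.4 to 1432 CPM against 765 to 890. Proximal tubule markers summed to 15965 to 21485 CPM and 13627 to 16705, and 1 of 6 fell. All 8 markers of dividing cells fell (11.2 to 38.9 against 114 to 171 CPM), as did 3 of 7 fibroblast markers (287 to 457 against 955 to 1581 CPM). The share of these in the rise of Cyp7b1 and Cyp27a1 was not tested.

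In heart, 5 of the 10 genes were tested, 1 fell and 0 rose, where 12.1% of the 13609 genes tested passed, 6.25% higher and 5.81% lower. The groups did not overlap for 4 of the 5, beside 50.4% of all genes. Of the 5, 1 (Abcb4) was higher at an unadjusted p under 0.05, and DESeq2 counted 1 gene that rose. Abcc3 was at 2.81 and 2.50 CPM in ketogenic hearts and at 6.33, 5.88 and 4.48 in chow. All ketogenic values were lower, and Abcc3 fell by 1.06 (log2, SE 0.23, adjusted p = 0.0306, edgeR). The call was lost in limma-voom, without chow replicate 1, without chow replicate 2 and without ketogenic replicate 3. Beside it, 5 of 7 macrophage markers tested fell (185 to 211 against 295 to 349 CPM), 4 of 7 fibroblast markers (1317 to 1424 against 2779 to 3956) and 6 of 8 markers of dividing cells (11.6 to 19.9 against 49.6 to 129.9). Of 16 clock genes 8 rose and 3 fell (1134 to 1142 against 599 to 754 CPM). Their part in the heart results was not tested.

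Abcb4 stood at 38.4 and 32.1 CPM in ketogenic hearts and at 24.1, 29.3 and 21.2 in chow, a log2 fold change of 0.51 (SE 0.15) that did not pass (adjusted p = 0.071, edgeR). The groups did not overlap. Without chow replicate 3, the library with atrial markers, Abcb4 and Cyp27a1 both passed as higher and the number of genes in heart that passed went from 1642 to 3742. Cyp27a1 was at 17.3 and 12.9 CPM against 11.0, 10.3 and 13.4, with overlap, and its log2 fold change was 0.39 (adjusted p = 0.186).

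Cyp7b1 in heart was at 0.646 and 0.460 CPM against 1.16, 0.848 and 1.07, from 7 to 26 counts (log2 fold change -0.84, adjusted p = 0.211, edgeR). Nr0b2 was at 9.69 and 9.06 CPM in ketogenic hearts and 10.2, 10.5 and 10.4 in chow (log2 fold change -0.15, adjusted p = 0.477). The ketogenic samples were lower for both genes, and neither passed. Of the other 14 pathway genes tested in heart, 3 rose, 1 fell and 10 did not pass: Hsd17b4 by 0.60 (adjusted p = 0.011), Rxra, a partner of nuclear receptors, by 0.39 (0.0214) and Scp2, a sterol carrier, by 0.30 (0.0497) were higher, and Osta, a subunit of an exporter of bile acids, fell by 2.25 (0.0281). Osta was at a low level, with means of 1.39 CPM in chow and 0.309 in ketogenic hearts. Of 15 alternatives the call of Scp2 was lost in 8, that of Rxra in 5, that of Osta in 2 and that of Hsd17b4 in 1. Without ketogenic replicate 3 all 4 calls were lost (adjusted p from 0.109 to 0.324, edgeR).

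**Figure D4:**
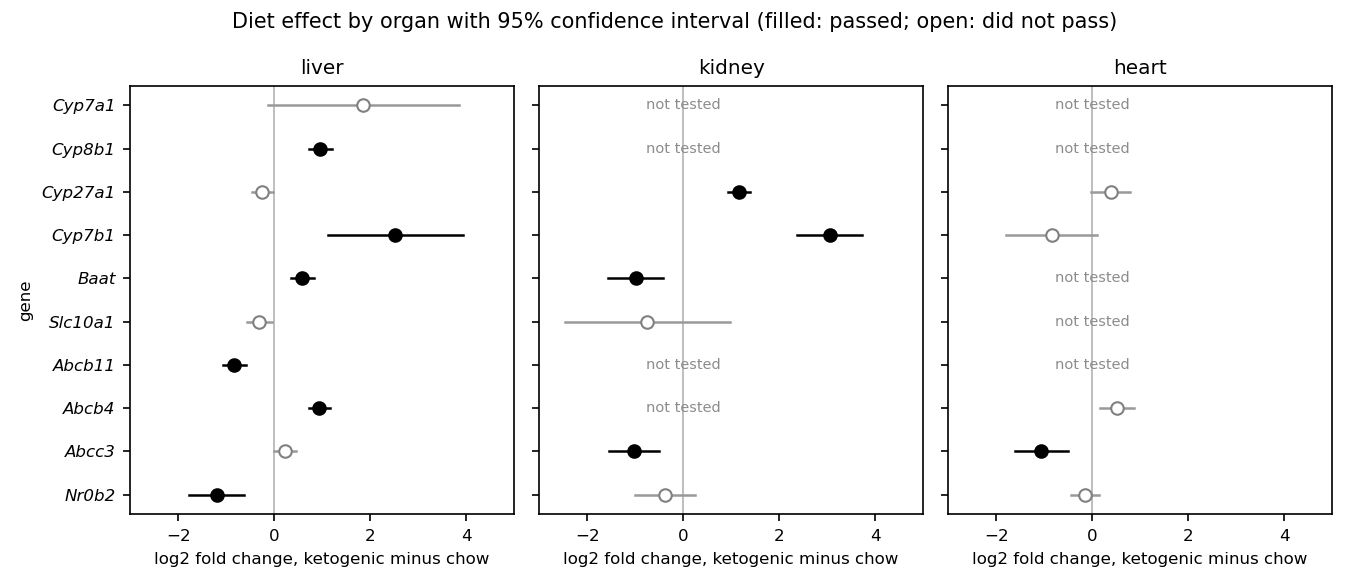
Log2 fold change, ketogenic minus chow, of each gene in liver, kidney and heart with 95% confidence intervals (filled, passed; open, did not pass; genes with too few counts marked as not tested). Cyp7b1 is at 2.53 in liver and 3.05 in kidney but -0.84 in heart, and Abcc3 lies below 0 in kidney and heart only.

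Whether the diet acted differently between organs was tested as a difference of log2 fold changes in 1 edgeR model, over 15695 genes. The model had no term for the animal, so any organs taken from the same animal were treated as independent samples. Of the genes tested, 21.8% differed between kidney and liver, 23.5% between heart and liver and 2.5% between heart and kidney. Members were compared only where they had been tested in both organs: 6 for kidney and liver, and 5 for heart and liver. For heart and kidney these were Cyp27a1, Cyp7b1, Abcc3 and Nr0b2. Of the members compared, 3, 4 and 2 differed, in that order. Cyp27a1 differed in all 3: its change was greater in kidney than in liver by 1.44 (SE 0.18, adjusted p = 0.00012), greater in heart than in liver by 0.68 (0.0187), and less in heart than in kidney, at -0.76 (0.0471). Cyp7b1 did not differ by this test between kidney and liver (0.55, 95% confidence interval -0.45 to 1.55, adjusted p = 0.444), while heart differed from liver (-3.30, adjusted p = 0.0137) and from kidney (-3.85, 0.0336). Without chow heart replicate 3, 3 of these calls were lost: Cyp7b1 between heart and liver (adjusted p = 0.063) and between heart and kidney (0.122), and Cyp27a1 between heart and kidney (0.076). With total-count scaling the call of Cyp27a1 between heart and liver was lost (0.0815).

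Baat moved in opposite directions in kidney and liver, a difference of -1.55 (SE 0.26, adjusted p = 0.000881, edgeR). The change of Abcc3 was lower than in liver in both kidney (-1.23, adjusted p = 0.00404) and heart (-1.22, 0.00834), and between heart and kidney its difference was 0.00 (95% confidence interval -0.82 to 0.82). Nr0b2 fell in liver and did not pass in heart, and heart minus liver was 1.10 (adjusted p = 0.00611), whereas kidney minus liver was 0.86 (0.0561).

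**Figure D5:**
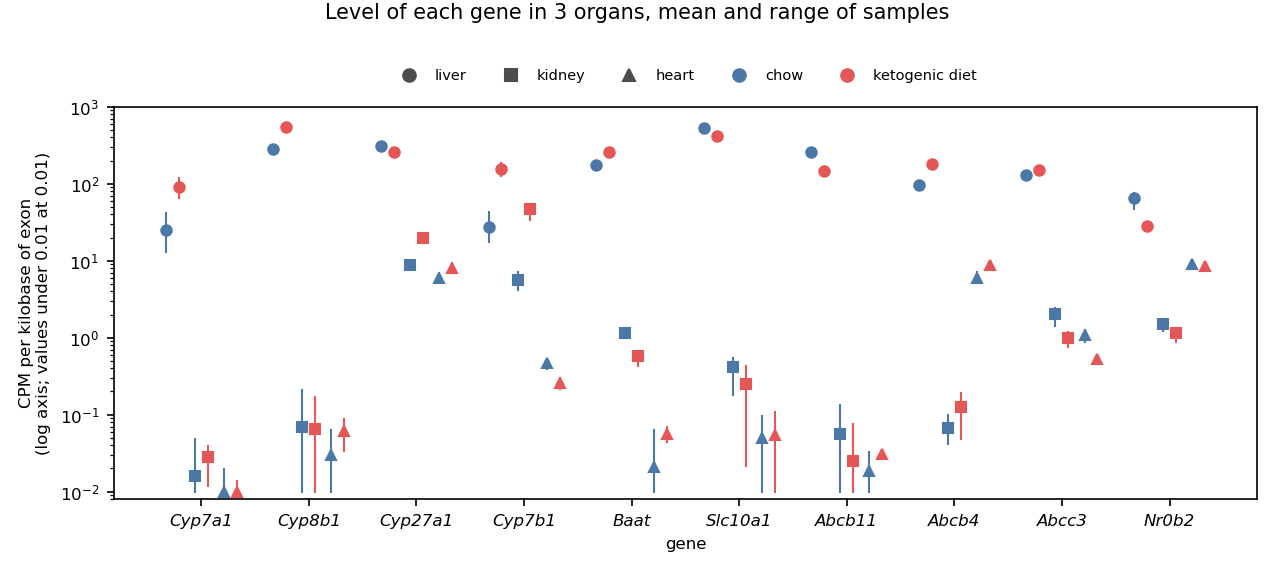
Level of each gene per kilobase of exon (log axis, CPM per kilobase) in liver, kidney and heart on each diet, where a symbol is the mean and the line the range of samples, and values under 0.01 are drawn at 0.01. Liver has the highest mean for all 10 genes on both diets, and ketogenic kidney has 46.8 CPM per kilobase of Cyp7b1 against 157 in ketogenic liver.

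In chow animals Cyp7a1, Cyp8b1 and Abcb11 had group means of no more than 0.0690 CPM per kilobase in kidney and heart, and the highest single library, a kidney for Cyp8b1, was at 0.207. No chow kidney or heart library had more than 16 counts of any of these 3 genes. Cyp27a1 was found in all 3 organs, at 309 CPM per kilobase in chow liver, 8.67 in kidney and 6.04 in heart. Abcb4 was at 6.03 CPM per kilobase in chow heart and 0.0676 in chow kidney, and Nr0b2 at 9.17 and 1.49, both higher in heart with no overlap of samples. Abcc3 was higher in chow kidney than in chow heart (2.00 and 1.10), and Cyp7b1 was at 5.55 in chow kidney and 0.467 in chow heart.

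Over the 16 samples of the 3 organs, the 3 genes whose log2 CPM followed each member most closely were ranked by Pearson correlation, as a description. All samples of an organ share its tissue, so differences between organs enter every value. Abcb11 was closest to Cyp1a2 (r = 0.9995), C8b and Hc, and Cyp8b1 to Cyp2c54 (0.9985), Slco1b2 and C4bp. Slc10a1 was closest to Ambp (0.9956), Fgb and Serpina6, Cyp27a1 to Aldh2 (0.998), Hrg and 2810459M11Rik, and Baat to Fads1 (0.9948), Rdh9 and Slc35e2. Abcc3 was closest to Elovl5 (0.9966), Abcg8 and Ei24, and those close to Abcb4 included Aox1 (0.9904) and Maob (0.9902). Cyp7a1 was closest to Gm19619 (0.9953), 4930480G23Rik and Mup6, and Nr0b2 to Sec24d (0.9903), Slc29a1 and Atf5. Cyp7b1, high in liver and in ketogenic kidney, had the lowest top value, with Cul4b (0.978), and then Herc4 and Cyp4a12b.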

How the data were processed

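Stranded messenger RNA libraries were made from each organ, with an RNA integrity number above 4, per the labels' protocols. The submitters' processing notes name HISAT2 2.1.0, featureCounts 1.5.0, bcl2fastq and SAMtools. Per the file headers, read pairs were counted on exons of the UCSC annotation of mm9, with strandedness setting 2 and minimum mapping quality 2, and reads with several places or genes were divided, so the deposited values are estimated counts (expected counts) that need not be whole. They were rounded to whole counts. The 10 genes and all lists were chosen with earlier results of these data known.

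Within each organ, genes kept by filterByExpr were scaled by TMM and tested with edgeR 4.0.16 (quasi-likelihood, robust, R 4.3.3), with Benjamini-Hochberg adjustment over all genes tested and a threshold of 0.05. Adjusted p-values without a named tool are edgeR's. Near-identical ketogenic replicates 1 and 2 of heart and liver were summed. Levels are CPM on the effective library size of the organ, and levels per kilobase come from 1 scaling of all organs and the files' exon lengths. Where the labels' replicates are not shown to be separate animals, p-values measure only the spread between these samples. Of the other pathway genes, up to 4 per list and direction in liver and 2 in kidney and heart are named, by smallest adjusted p among those that passed; Abcg5, Klb, Slc10a2 and liver Nr1h4 were named after their values were seen, as were the clock and marker genes given singly. Alternatives were RLE or total-count scaling, other filters, DESeq2 1.42.0, limma-voom (limma 3.58.1), 1 model of all groups, the replicate number as a block, the pairs kept apart, and leaving out each library. On simulated counts, edgeR recovered 52.2, 89.6 and 95.5% of genes changed 1.5-, 2- and 4-fold in the liver comparison, over 13060 genes, and 9.71% of its calls were false. It recovered 59.7, 94.0 and 100% in kidney, 22.4, 79.1 and 98.5% in heart, and 13.4, 67.2 and 81.8% for kidney minus liver. The simulation changed few genes, none of them at low level, whereas 36.8% of liver genes passed in the data. Its shares need not hold for the data. RefSeq promoter sequences are on GRCm38.p6 and the gene positions on mm9. Some genes that these rules name are not reported here, in text or figures.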

Additional observations from a re-analysis of the deposited data

Results flagged for a closer look

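The diet effect differed between organs for 5 genes, in 9 tests of the difference of log2 fold changes by edgeR. Members were compared only where they had been tested in both organs. For Cyp27a1 the difference was 1.44 between kidney and liver, 0.682 between heart and liver and -0.757 between heart and kidney. For Cyp7b1 it was -3.3 between heart and liver and -3.85 between heart and kidney. For Abcc3 it was -1.23 between kidney and liver and -1.22 between heart and liver. For Baat it was -1.55 between kidney and liver, and for Nr0b2 1.1 between heart and liver. Fractions of 21.8, 23.5 and 2.5% of all genes differed between kidney and liver, heart and liver, and heart and kidney. Of the 9, 4 no longer passed in 1 of 4 alternatives: those of Cyp7b1 between heart and liver (adjusted p = 0.063) and heart and kidney (0.122) and of Cyp27a1 between heart and kidney (0.076) without chow heart replicate 3, and that of Cyp27a1 between heart and liver (0.0815) with total-count scaling. The cause of these differences was not tested.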

How the results depend on the processing

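In liver the number of the 10 genes that rose stayed within 3 to 6, and the number that fell, 2 as reported, was 4 with DESeq2, 4 with the near-identical pair as separate libraries and 1 in the model of all 6 groups, and 2 to 3 when 1 library was left out. In kidney 1314 genes passed as reported, and 412 to 3402 when 1 library was left out, most without ketogenic replicate 1; of the 10 genes 2 rose throughout and 0 to 2 fell. In heart 1642 genes passed, 3317 with the pair as separate libraries, and 89 to 3742 when 1 library was left out, fewest without ketogenic replicate 3 and most without chow replicate 3. Of the 10 genes in heart, 1 rose with DESeq2 and 1 with the pair as separate libraries, 0 to 2 when 1 library was left out, and 0 fell with limma-voom and 0 to 1 when 1 library was left out. The members that differed between heart and kidney went from 2 to 0 without chow heart replicate 3. The cause was not tested.

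The difference of Slc10a1 between kidney and liver turned to 0.14 without ketogenic kidney replicate 1, from -0.39. That of Abcc3 between heart and kidney, 0.00 as reported, was -0.0093 with the pair as separate libraries, -0.0589 with total-count scaling and -0.16 to 0.114 when 1 of chow heart replicate 3 and ketogenic kidney replicate 1 was left out. Total-count scaling lowered the share of higher calls in kidney (25.3% against 39.7%) and heart (24.4% against 51.8%), and the median log2 fold change of all heart genes to -0.17. None of the diet effects reported for the 10 genes (10 in liver, 6 in kidney, 5 in heart) changed direction under these settings.

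Deviations of same-numbered ketogenic and chow libraries correlated from 0.0304 to 0.0934 in liver and 0.0296 to 0.106 in heart, all positive. In kidney the correlations ran from -0.141 to 0.0477, with both signs. With so few libraries in a group, and near-identical ketogenic libraries in liver and heart, these values cannot decide whether the numbers pair the samples. With the replicate number as a block, and all libraries apart in heart and liver, 4 of the 10 fell in liver, 0 fell and 810 genes passed in kidney, and 1 rose and 2732 genes passed in heart.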
